A study of Mus musculus with 12 samples.

Results

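DNA replication genes encode the proteins that license origins, unwind the double helix, copy both strands and supply the building blocks. The 42 genes described here were taken by name from a table of 18269 genes, and all 42 were listed there. They fall into 10 role groups, from origin licensing to the E-type cyclins. Every one passed the filter on low values and was tested among 17000 genes, and the fewest reads for any of them in a library was 274, for Gins3.

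The RNA came from mouse embryoid bodies, which are aggregates of differentiating embryonic stem cells, collected at day 3 and day 5 of differentiation. The floxed line 4_1 is Gcn5fx/fx: its Gcn5 gene, symbol Kat2a, carries recombination sites and encodes a histone acetyltransferase. The null line 4C2 is Gcn5-/- by its label. Strain C57BL/6 is given for both lines, and no other allele, agent or treatment is named for any group. The 4 groups of line and day hold 3 samples each by the labels, while the series text has duplicates. Each genotype is represented by 1 line, so differences between lines and an effect of Gcn5 cannot be told apart. The labels do not say that the samples of a group were separate cultures, so the p-values measure the spread between samples, which may be technical.

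A replication origin is licensed in G1, when the origin recognition complex, Cdc6 and Cdt1 load the ring-shaped MCM helicase onto DNA. At the start of S phase, kinases that include cyclin E with Cdk2 turn the loaded rings into moving helicases. Polymerase alpha-primase then starts each strand, and polymerases delta and epsilon extend it with the sliding clamp PCNA. Many of these genes are known targets of E2F transcription factors and are transcribed around the G1 to S transition, and pluripotent cells are known for a short G1 and a large share of cells in S phase.

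Promoter sequences of 34 of the 42 genes were found among RefSeq promoters of GRCm38.p6, in windows of 300 bases from 250 before to 50 after the start of transcription. An E2F site was searched on both strands as TTTCCCGC, TTTCGCGC, TTTGCCGC or TTTGGCGC, matches that overlap each other included. At least 1 match was present for 14 of the 34 genes (41.2%), against 540 of 11859 tested genes with a window (4.55%). The E-box CACGTG, a palindrome that MYC and other factors bind, was present for 6 of 34 genes (17.6%), against 11.4% of the tested genes. A CCAAT box, the letters CCAAT on either strand, was present for 21 of 34 genes (61.8%), against 42.9%. Longer promoters were not searched, and a match is a description of letters.

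The promoters below belong to the 4 genes with the smallest p at day 5 between the lines, among those outside chromosome 11 that held an E2F or E-box match. Each runs from 250 bases before to 30 bases after the RefSeq start, 5′ to 3′ on the strand of the gene, and capitals mark the matches. Mcm5 (chr8:75109259-75109538, plus strand) has 2 overlapping E2F matches that begin 153 and 149 bases before the start. In Pola1 (chrX:93632126-93632405, minus strand) a single E2F match begins 138 bases before the start. Pola2 (chr19:5964177-5964456, minus strand) has an E-box 221 bases before the start and no E2F match. Mcm7 (chr5:138171854-138172133, minus strand) has 2 E2F matches in this 1 of its 2 windows, one 165 bases before the start and one at base 17 after it.
Mcm5: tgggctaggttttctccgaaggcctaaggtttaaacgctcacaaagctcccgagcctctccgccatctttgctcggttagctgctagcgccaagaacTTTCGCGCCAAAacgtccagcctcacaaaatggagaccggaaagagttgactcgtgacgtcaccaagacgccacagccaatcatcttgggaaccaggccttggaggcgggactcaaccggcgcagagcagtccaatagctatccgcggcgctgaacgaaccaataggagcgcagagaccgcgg
Pola1: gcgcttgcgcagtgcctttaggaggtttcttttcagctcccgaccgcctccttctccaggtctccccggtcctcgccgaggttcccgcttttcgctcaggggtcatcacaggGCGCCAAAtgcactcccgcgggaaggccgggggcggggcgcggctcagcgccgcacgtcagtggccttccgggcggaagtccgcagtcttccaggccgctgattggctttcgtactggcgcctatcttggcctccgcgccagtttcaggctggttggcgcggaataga
Pola2: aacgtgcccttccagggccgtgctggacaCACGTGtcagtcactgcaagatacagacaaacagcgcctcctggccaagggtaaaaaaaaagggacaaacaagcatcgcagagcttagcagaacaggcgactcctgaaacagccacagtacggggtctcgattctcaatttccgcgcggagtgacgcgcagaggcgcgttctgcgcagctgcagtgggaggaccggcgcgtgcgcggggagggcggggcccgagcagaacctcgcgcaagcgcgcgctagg
Mcm7: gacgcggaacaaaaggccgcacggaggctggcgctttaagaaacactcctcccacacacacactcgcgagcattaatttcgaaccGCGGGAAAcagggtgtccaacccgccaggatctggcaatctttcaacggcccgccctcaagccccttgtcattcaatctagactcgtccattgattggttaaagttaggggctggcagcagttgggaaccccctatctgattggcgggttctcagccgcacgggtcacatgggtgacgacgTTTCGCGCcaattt

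Kat2a was lower in the null line, at 701 ± 122 normalised reads against 2228 ± 151 in the floxed line at day 3 (SD, n = 3), and at 817 ± 67.5 against 2207 ± 165 at day 5. A normalised read count is the number of reads of a gene divided by the size factor of its library. Libraries held 23090915 to 29446068 reads in the floxed line and 18022071 to 26803369 in the null line. At day 3 the 9 pluripotent and epiblast markers summed to 58172 to 73091 normalised reads in floxed and 48360 to 64269 in null libraries. Fgf5 (79.4 to 241) and Otx2 (89.4 to 375) were the least abundant of them. All 8 markers of extraembryonic endoderm rose from day 3 to day 5 in both lines. Of all genes tested, 22.5% rose in the floxed and 22.6% in the null line by the same test, given below.

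At day 5 the replication genes were lower in the null line as a broad group. Of the 42 genes, 21 fell and 1 rose (52.4% called), where 26.5% of all 17000 genes tested were called, 13.5% lower and 13% higher. The test was limma-trend on log2(value + 1), and a gene was called at a Benjamini-Hochberg adjusted p under 0.05 over all genes tested. The median log2 change of the 42 genes was -0.26, beside -0.02 for all genes tested. Below 0 lay 37 of the 42 (33 with upper-quartile scaling), where 52% of all genes tested did. The null libraries lay entirely below the floxed ones for 29 of the 42 genes (69%), beside 22.2% of all genes tested, and entirely above them for 1, beside 19.8%. Most changes were moderate, and the deepest fall was that of Pola1, by 37.3%.

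At day 3 fewer of these genes were called between the same lines. The test of a difference between the days, the interaction given below, called 0 of the 42 with limma and 4 with DESeq2. Null samples had 2 genes higher, Pold2 and Rpa1, and 1 lower, Pola2, so that 7.14% were called where 6.12% of all genes were (4.09% higher, 2.03% lower). The median log2 change was -0.04, against -0.00 for all genes. The null libraries lay entirely above the floxed ones for 8 genes (14.8% of all genes tested did) and entirely below for 10 (13.1%). Both higher genes lie on chromosome 11. With the replicate number as a block, which pairs same-numbered samples, 5 genes were higher and 3 lower at day 3, where the block called 11% of all genes, 4.53% lower. The added calls were Mcm6 (adjusted p = 0.047), Rfc4 (0.048) and Tk1 (0.0119) higher, and Pola1 (0.0311) and Rrm2 (0.0468) lower.

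In summed RNA, the 42 genes took 0.719% ± 0.0171 of all reads in floxed and 0.716% ± 0.0233 in null samples at day 3 (SD, n = 3). At day 5 the shares were 0.734% ± 0.0248 and 0.646% ± 0.0113. The 3 null day 5 libraries, at 0.633%, 0.653% and 0.652%, lay below all of the other 9, which ran from 0.694% to 0.762%. In bulk RNA, fewer cells in S phase and less RNA of these genes per cell cannot be told apart.

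**Figure D1:**
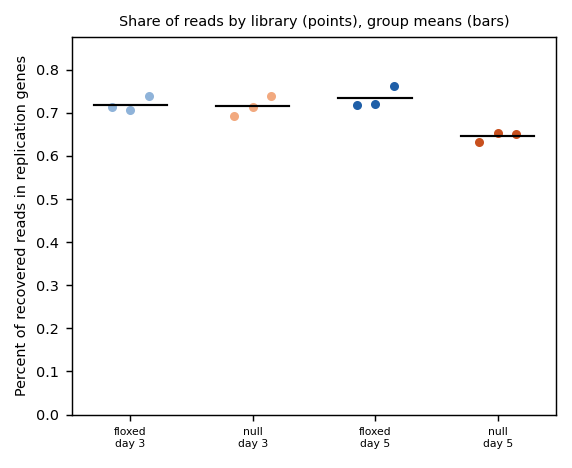
Share of all recovered reads taken by the 42 replication genes (y axis, percent) in each library of the 4 groups of line and day; points are libraries and horizontal bars are group means (n = 3). The null day 5 group, at 0.646%, lies below the other 3 groups.

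Other measures were set beside the day 5 difference, and the first 2 marker lists moved with it. The summed level of 9 pluripotent and epiblast markers (9 of 9 in the table) was 34956 to 43469 normalised reads in floxed and 23359 to 26707 in null libraries at day 5. Of these 9 markers 7 fell, where 13.5% of all genes tested were called lower and 13% higher. The sum of 7 neural ectoderm markers was 9163 to 16626 in floxed and 5709 to 7963 in null libraries, and 3 of the 7 fell. For 7 of 8 streak and mesoderm markers the sums were 386 to 600 and 296 to 415, which overlap, and Mesp1 was not in the table. The sums also overlapped for 8 extraembryonic endoderm markers (1439 to 4482 against 1718 to 2569) and for 8 of 9 feeder fibroblast markers (10524 to 14526 against 9589 to 15484). Most of the feeder sum came from Fn1 alone, at 8484 to 12049 in floxed and 7694 to 12071 in null libraries. By gene, 1 of the 7 streak and mesoderm, 1 of the 8 endoderm and 0 of the 8 feeder markers fell, and 0 rose. Myc, a transcription factor that promotes growth, had 112 ± 39.8 normalised reads in the null and 376 ± 109 in the floxed line at day 5, a log2 change of -1.76 (adjusted p = 0.0014). Day 5 libraries held 26160220 to 29446068 reads in the floxed and 18865848 to 24416832 in the null line. The part of these differences in the lower replication genes was not tested.

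Origin licensing genes fell in 2 of 4 cases at day 5. Orc6, a subunit of the origin recognition complex (ENSMUSG00000031697.11, chromosome 8, 85299632 to 85308278), had 2128, 2066 and 2096 normalised reads in the floxed day 5 libraries and 1580, 1715 and 1662 in the null ones. The groups did not overlap, and the log2 change was -0.34 ± 0.07 (SE; adjusted p = 0.00406). Cdt1, the loader that is removed once S phase begins, also fell (-0.30 ± 0.07, adjusted p = 0.0106), while Orc1 did not pass the test (-0.22 ± 0.11, adjusted p = 0.146). At day 3, Orc6 read 2205, 2264 and 2244 in floxed and 1773, 2106 and 1935 in null libraries. The groups were apart there too, but the change of -0.21 did not pass (adjusted p = 0.096). Orc6 shares 171 bases of exon with Vps35 on the opposite strand.

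Cdc6, the ATPase that works with ORC to load MCM rings (chromosome 11, 98907801 to 98923940), differed from the rest of its group. That holds in values that include the shift of chromosome 11 described below. Cdc6 had 2357, 2395 and 2380 normalised reads in floxed and 2633, 2663 and 3001 in null libraries at day 3. All null values were above all floxed values, yet the change of 0.22 ± 0.08 did not pass (adjusted p = 0.138). At day 5 the values were 2623, 2132 and 2354 against 2618, 2401 and 2435, which overlap, with a change of 0.07 ± 0.08.

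The MCM helicase had the largest number of falls: 5 of its 6 subunits fell at day 5, by 18.2% (Mcm3) to 28% (Mcm5). Mcm5 (chromosome 8, 75109569 to 75128439) had 9935, 9344 and 10363 normalised reads in floxed and 7098, 7177 and 7061 in null libraries at day 5. The null libraries were close to each other and well below every floxed one, with a log2 change of -0.47 ± 0.06 (adjusted p = 0.000266). At day 3 its values were 10194, 10981 and 10930 in floxed and 9601, 9308 and 10026 in null libraries, apart but with a change of -0.15 that did not pass (adjusted p = 0.159). Mcm2 (-0.34), Mcm4 (-0.32) and Mcm7 (-0.38) fell by similar amounts.

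Mcm6 was the subunit that did not pass. It had 11591, 11500 and 11992 normalised reads in floxed and 10492, 11279 and 10616 in null libraries at day 5, a change of -0.12 ± 0.06 (adjusted p = 0.191). At day 3 the order was the other way round, with 9390, 9741 and 10588 in floxed and 11291, 10963 and 11866 in null libraries (0.20 ± 0.06, adjusted p = 0.0787). The 6 subunits form 1 ring in equal numbers. Per kilobase of exon, the level of Mcm3 to Mcm7 averaged 2335 to 2417 normalised reads over the 12 libraries, and that of Mcm2 1512.

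Helicase activation genes moved less. Of the 6 genes, which include Cdc45 and the 4 GINS subunits that complete the active helicase, 1 fell at day 5. That gene, Mcm10, a scaffold for the first steps of unwinding (chromosome 2, 4989714 to 5012791), had 3768, 3297 and 3405 normalised reads in floxed and 2786, 2865 and 2900 in null libraries. The groups did not overlap, with a change of -0.29 ± 0.07 (adjusted p = 0.00989). Cdc45 was at -0.02 ± 0.12 and the GINS genes ran from -0.06 (Gins1) to -0.22 (Gins4), none of which passed the test.

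All 4 genes of polymerase alpha-primase, the enzyme that makes the RNA-DNA primers, fell at day 5. Pola1, the catalytic subunit (chromosome X, 93304767 to 93632155), had 3587, 3238 and 3410 normalised reads in floxed and 2350, 2085 and 1995 in null libraries. That is the lowest change among the 42 genes, -0.67 ± 0.09 (adjusted p = 0.000285). At day 3 Pola1 read 4093, 3999 and 3914 in floxed and 3688, 3451 and 2952 in null libraries, again apart, with a change of -0.26 (adjusted p = 0.101).

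Pola2, the regulatory B subunit (chromosome 19, 5940542 to 5964202), was lower on both days. Its day 3 values were 2450, 2414 and 2421 in floxed and 2071, 2060 and 2063 in null libraries, and its day 5 values were 2155, 2261 and 2234 against 1831, 1745 and 1721. The spread within each group was small and no null library reached a floxed one. The changes were -0.23 ± 0.06 at day 3 (adjusted p = 0.0297) and -0.33 ± 0.06 at day 5 (adjusted p = 0.00157). The day 3 call did not hold when any 1 of the 6 libraries was left out (adjusted p from 0.0617 to 0.0989), nor when only the day 3 groups were fitted (0.0717). The primase genes Prim1 (-0.33) and Prim2 (-0.38) fell at day 5 and stood at 0.03 and -0.00 at day 3. Prim1 passed with an adjusted p of 0.0209, and this call was lost without floxed day 5 replicate 3 (0.0714), null day 5 replicate 1 (0.0794) or null day 5 replicate 3 (0.0563).

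Polymerases delta and epsilon, which extend the lagging and leading strands, had calls in both directions. Pold2, an accessory subunit of polymerase delta (ENSMUSG00000020471.11, chromosome 11, 5872180 to 5878292), was the only gene of the 42 that rose at day 5. It had 2111, 2270 and 2090 normalised reads in floxed and 3137, 3059 and 3362 in null libraries at day 3, and 1662, 1782 and 1790 against 2004, 2131 and 2276 at day 5. Null libraries were higher than all floxed ones of the same day, with changes of 0.56 ± 0.07 (adjusted p = 0.00143) and 0.29 ± 0.07 (adjusted p = 0.00993). These values include the shift of chromosome 11 described below, and neither call held with that chromosome centred. Pold3, another accessory subunit, fell at day 5 (-0.24 ± 0.07, adjusted p = 0.0248), a call lost without floxed day 5 replicate 2 (0.0684) or 3 (0.0653), or null day 5 replicate 1 (0.0882) or 3 (0.0543). The catalytic subunits Pold1 (-0.02 ± 0.09) and Pole (-0.18 ± 0.07) did not pass the test.

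In the clamp and clamp loader group of 6 genes, 1 fell at day 5, the clamp itself. Pcna, the ring that tethers the polymerases to DNA (chromosome 2, 132249162 to 132253314), had 7517, 6728 and 7543 normalised reads in floxed and 4840, 5017 and 4884 in null libraries. The change of -0.56 ± 0.07 had the smallest adjusted p among the 42 genes, 0.000169. At day 3 the values were 7716, 7474 and 7000 against 6086, 6667 and 6251, apart but short of the threshold (-0.22 ± 0.07, adjusted p = 0.0644). Pcna has annotated pseudogenes that could share its reads. The 5 clamp loader genes Rfc1 to Rfc5, which open the ring and close it around DNA, ran from -0.30 (Rfc3) to 0.10 (Rfc4), and none passed. With the replicate block Rfc2 (adjusted p = 0.0337) and Rfc3 (0.00663) were also called lower at day 5, as were Orc1 (0.0282) and Pole2 (0.0271), and the block called 17.3% of all genes lower.

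The 3 subunits of RPA, which coats single-stranded DNA, did not move together in values that include the shift of chromosome 11 described below. Rpa1, the large subunit (chromosome 11, 75298166 to 75348324), had 7380, 7770 and 7005 normalised reads in floxed and 8939, 9266 and 9114 in null libraries at day 3. No null library overlapped a floxed one, and the change was 0.30 ± 0.06 (adjusted p = 0.0109, and 0.105 without the libraries numbered 3). At day 5 its values were 7226, 6744 and 6656 against 7167, 7303 and 6868, which overlap (0.05 ± 0.06). Rpa2, the middle subunit (chromosome 4, 132768332 to 132778752), had 2440, 2309 and 2689 in floxed and 1955, 2103 and 2164 in null libraries at day 5, a change of -0.26 ± 0.08 (adjusted p = 0.0321). That call was lost without floxed day 5 replicate 1 (0.065) or 3 (0.126), or null day 5 replicate 1 (0.102) or 2 (0.0658). Rpa3 stood at 0.05 ± 0.11.

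Of the 2 genes for joining lagging strand fragments, Fen1 fell at day 5 and Lig1 did not pass (-0.04 ± 0.07). Fen1, the nuclease that trims flaps (chromosome 19, 10199132 to 10204169), had 3417, 2987 and 3228 normalised reads in floxed and 2407, 2506 and 2433 in null libraries. The groups did not overlap, with a change of -0.39 ± 0.07 (adjusted p = 0.00281). Fen1 shares 1909 bases of exon with Gm10143 on the opposite strand, and its value may hold reads of both.

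Nucleotide supply genes fell in 3 of 4 cases at day 5. Rrm2, the small subunit of ribonucleotide reductase (chromosome 12, 24708241 to 24714146), had 8665, 8770 and 9812 normalised reads in floxed and 6262, 6355 and 6129 in null libraries. Every null library was below every floxed one, with a change of -0.54 ± 0.07 (adjusted p = 0.00026). Its partner Rrm1 fell less (-0.27 ± 0.07, adjusted p = 0.0119), a call lost without floxed day 5 replicate 3 (0.0523). Tyms, the thymidylate synthase, fell by 23.7% (-0.39 ± 0.09, adjusted p = 0.00713).

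Tk1, the salvage enzyme thymidine kinase (chromosome 11, 117815526 to 117826092), did not follow them in values that include the shift of chromosome 11 described below. It had 1430, 1438 and 1646 normalised reads in floxed and 1674, 1825 and 2171 in null libraries at day 3, and 1400, 1384 and 1747 against 1407, 1390 and 1506 at day 5. The null values were above the floxed ones at day 3 (0.32 ± 0.11, adjusted p = 0.105) and within their range at day 5 (-0.07 ± 0.11, adjusted p = 0.703).

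Both E-type cyclins, the activators of Cdk2 at the entry into S phase, fell at day 5. Ccne2 (chromosome 4, 11191351 to 11204779) had 959, 750 and 1010 normalised reads in floxed and 615, 627 and 599 in null libraries. The groups were apart even though the floxed libraries spread widely, with a change of -0.55 ± 0.12 (adjusted p = 0.00476). Ccne1 (chromosome 7, 38097984 to 38107534), named here after its values were seen, had 2771, 2400 and 2582 in floxed and 2122, 1868 and 1853 in null libraries (-0.41 ± 0.08, adjusted p = 0.00362). At day 3 neither cyclin passed the test (-0.07 for Ccne2 and -0.03 for Ccne1). Ccne2 shares 609 bases of exon with Ints8 on the opposite strand.

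**Figure D2:**
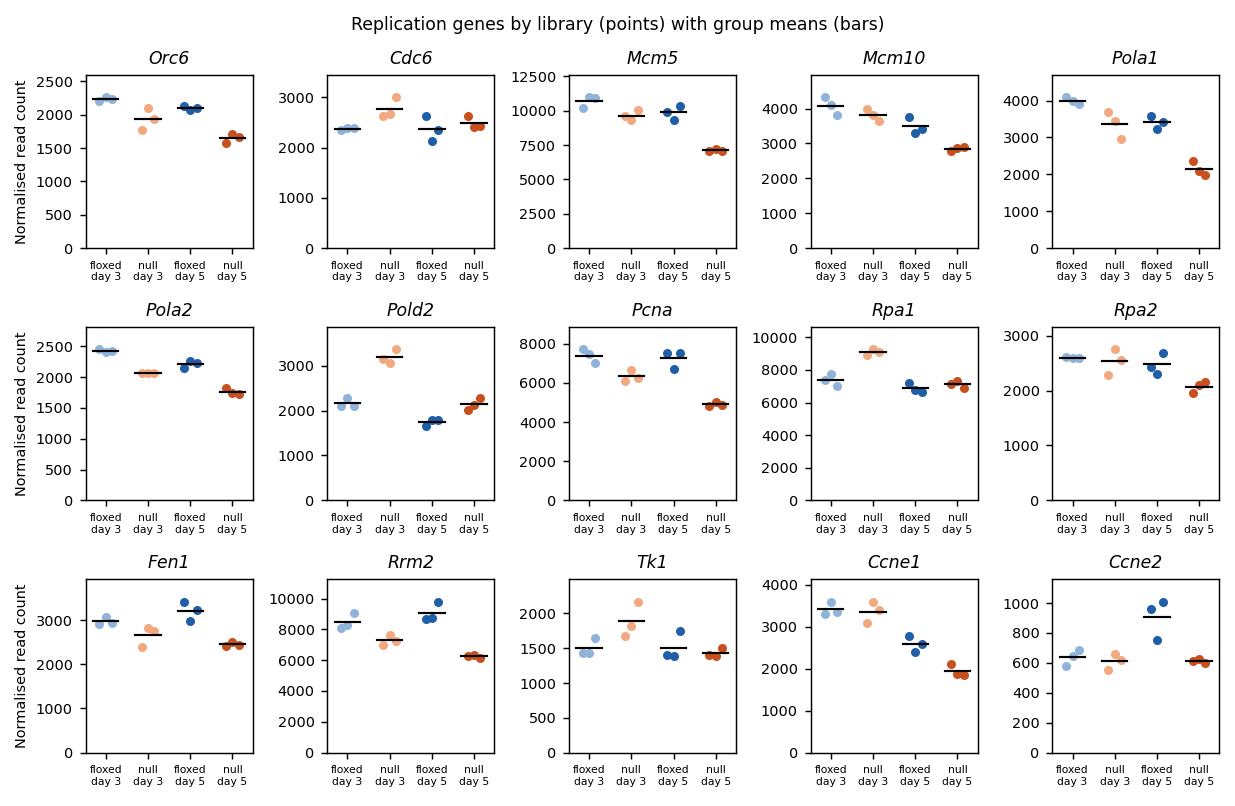
Normalised read counts (y axis, from 0) of single replication genes in each of the 12 libraries, grouped by line and day; points are libraries and lines are group means. The null day 5 points of Mcm5, Pola1, Pcna and Rrm2 lie below those of every other group, and the Pold2 points of the null line lie above those of the floxed line on the same day.

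The 4 genes on chromosome 11 were Cdc6, Pold2, Rpa1 and Tk1. Their changes ran from 0.22 to 0.56 at day 3 and from -0.07 to 0.29 at day 5, and the whole chromosome was shifted. Its 1332 tested genes had a median log2 change of 0.36 at day 3 and 0.33 at day 5, and 30.6% and 43.9% of them were called. With each gene of chromosome 11 taken relative to that median, Pold2 stood at 0.20 at day 3 (adjusted p = 0.142) and -0.03 at day 5 (0.765), so both of its calls ended. Rpa1 then stood at -0.06 at day 3 (0.656) and was called lower at day 5 (-0.28, adjusted p = 0.00632), as were Cdc6 (-0.25, 0.0391) and Tk1 (-0.39, 0.0227). These moves follow by construction from the subtracted median, which the fit took as known without error. Kat2a lies on the same chromosome. Among the 38 genes outside chromosome 11, 21 fell at day 5 (55.3%), where 25% of all tested genes outside chromosome 11 were called in either direction, and the largest change upward was 0.10.

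From day 3 to day 5 the floxed line changed few of these genes and in both directions. Of the 42, 9 fell and 3 rose (28.6%), where 41.7% of all genes tested were called, 19.2% lower and 22.5% higher, and the median was -0.06. The day 5 libraries lay entirely above those of day 3 for 6 genes (27.4% of all genes tested did) and entirely below for 11 (25.9%). Ccne1 (-0.40 ± 0.08), Orc1 (-0.40 ± 0.11), Pold1 (-0.34 ± 0.09) and Mcm2 (-0.32 ± 0.06) were among the falls, and Ccne2 rose most (0.49 ± 0.12, adjusted p = 0.00414). Mcm6 rose by 0.24 ± 0.06 while Mcm2 fell, although both encode parts of the same ring. When single libraries were left out, 8 of the 12 calls held each time. Cdt1 was lost without floxed day 3 replicate 1 or 2 or day 5 replicate 1 or 2 (adjusted p from 0.063 to 0.0792), and Mcm10 without day 3 replicate 1 or 2 or day 5 replicate 2 or 3 (0.0569 to 0.0917). Pola1 was lost without any floxed library but day 5 replicate 1 (0.0671 to 0.15), and Prim2 without replicate 3 of day 3 (0.0588) or of day 5 (0.0739).

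In the null line over the same interval 26 genes fell and 0 rose (61.9%), where 44.5% of all genes tested were called, 21.9% lower and 22.6% higher. The replicate block called 27 lower, adding Gins4 (adjusted p = 0.0444, against 0.0579 without it), where it called 24.3% of all genes lower. At an unadjusted p under 0.05 limma also had 0 of these genes higher, where 4522 of the 17000 genes tested were higher. The edgeR quasi-likelihood test and DESeq2 each called 0 of the 42 higher, with 23 and 27 lower. Of all genes they called 20.6% and 21.7% lower. The median was -0.26, beside 0.00 for all genes, and the null day 5 libraries lay entirely below those of day 3 for 27 of the 42 genes, beside 26.3% of all genes tested, and entirely above for 0, beside 27.4%. Ccne1 fell most (-0.78 ± 0.08, adjusted p = 1.48e-05), followed by Pola1 (-0.65 ± 0.09), Pold2 (-0.58 ± 0.07), Orc1 (-0.54 ± 0.11) and Mcm2 (-0.53 ± 0.06). All 5 genes of polymerases delta and epsilon fell in this line, against 2 of 5, Pold1 and Pold2, in the floxed line. Leaving out single libraries kept 18 of the 26 calls each time. Without null day 3 replicate 2 the calls of Orc6 (adjusted p = 0.0846), Pole2 (0.0616), Rpa2 (0.0533) and Rrm2 (0.0684) were lost, and without day 3 replicate 3 that of Tk1 (0.055). Orc6 (0.0617) and Pole2 (0.0519) were also lost without day 5 replicate 1, and Rrm2 (0.0515) without day 5 replicate 3. Cdc45 was lost without day 3 replicate 1 or 3 or day 5 replicate 1 or 2 (0.0517 to 0.183), Pold3 without any but day 5 replicate 2 (0.0578 to 0.131), and Prim1 without any but day 3 replicate 3 and day 5 replicate 2 (0.0791 to 0.144).

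Ccne2 is the gene whose course over time differed most between the lines. In the floxed line it had 582, 649 and 687 normalised reads at day 3 and 959, 750 and 1010 at day 5, with every day 5 library higher. In the null line it had 552, 657 and 621 at day 3 and 615, 627 and 599 at day 5, with no separation (0.01 ± 0.12). The difference between the 2 courses was -0.48 ± 0.16 and did not pass the interaction test (adjusted p = 0.203).

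**Figure D3:**
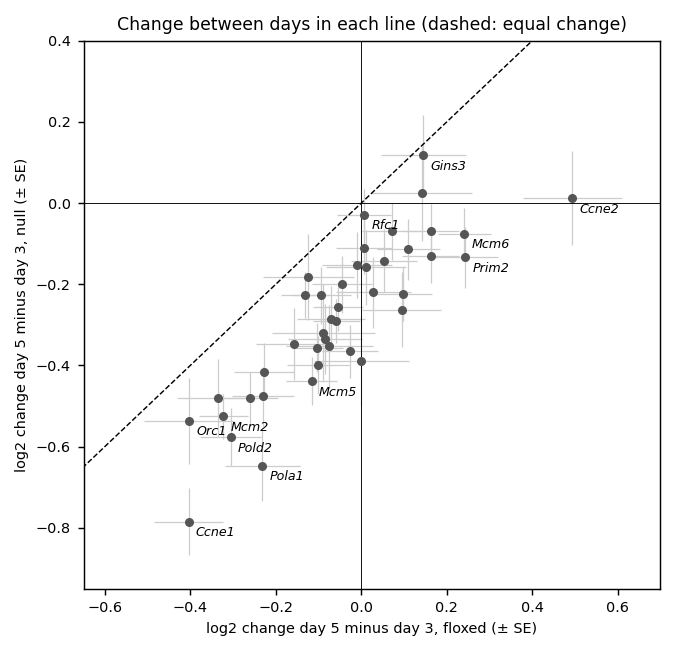
Log2 change from day 5 against day 3 in the floxed line (x axis) and in the null line (y axis) for each of the 42 genes; points are limma estimates with ± SE on both axes, and the dashed diagonal marks equal change. All 42 points lie below the diagonal, with interaction values from -0.48 to -0.03.

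The interaction test asks whether the change from day 3 to day 5 differs between the lines. All 42 limma estimates were below 0, with a median of -0.23, where 52.2% of all genes tested were below 0. With upper-quartile scaling 40 of the 42 were, as without floxed day 5 replicate 2 or null day 5 replicate 1, and other settings had 41 or 42. With limma 0 of the 42 passed (0.476% of all genes did, 0.247% higher and 0.229% lower), and 20 had an unadjusted p under 0.05, all lower, where 1324 of the 17000 genes were lower and 1088 higher at that p. The edgeR test called 0, and DESeq2 called 4 lower, Mcm5 (adjusted p = 0.0128), Mcm6 (0.028), Pcna (0.0318) and Prim2 (0.0364), where it called 1.59% of all genes lower. With the replicate block limma called Pola1 lower (adjusted p = 0.0426), and 1.36% of all genes. These contrasts share samples, and genes are not independent replicates.

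The day 5 changes were set beside the promoter matches. Of the 14 genes with an E2F match 6 fell, with a median change of -0.25, and of the 20 genes with a window and no match 12 fell and 1 rose, with a median of -0.28. For the E-box, 3 of 6 genes with a match fell (median -0.18) and 15 of 28 without (median -0.27). For the CCAAT box, 12 of 21 genes with a match fell and 1 rose (median -0.29), and 6 of 13 without fell (median -0.24). None of these differences was tested. The 4 printed promoters were chosen by the day 5 p of their genes, so the falls of those genes add nothing here. Pcna and Rrm2, with the smallest adjusted p-values, had neither an E2F nor an E-box match in their windows.

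Other genes of the same pathways, 64 in 7 lists, were lower to a smaller extent. At day 5, 20 fell and 3 rose (35.9%), where 26.5% of all genes tested were called, 13.5% lower and 13% higher, and the median was -0.18. At day 3, 2 fell and 3 rose (7.81%), a share close to the 6.12% of all genes tested. The day 3 calls were Tfdp1 and Cdk2 (-0.35), the kinase partner of cyclin E, lower, and Rrm2b (0.41), a ribonucleotide reductase subunit, Atad5 (0.41) and Top2a (0.60) higher. Of 18 regulators of the G1 to S transition 8 fell and 1 rose at day 5. Tfdp1, the dimer partner of E2F proteins, was at -0.59 ± 0.08 (adjusted p = 0.000285) and had been lower at day 3 (-0.32 ± 0.08, 0.0261). Cdc25a, a phosphatase that activates Cdk2, was at -0.37 ± 0.07 (0.00241), and Rb1, which restrains E2F, rose by 0.65 ± 0.13 (0.00292).

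Among 9 further genes of nucleotide supply 4 fell at day 5, with Umps, which makes uridine monophosphate, at -0.54 ± 0.08 (adjusted p = 0.000452) and Dut, the dUTPase, at -0.31. Of 13 further fork genes 3 fell and 2 rose. Pole3, a histone-fold subunit of polymerase epsilon, fell (-0.47 ± 0.11, adjusted p = 0.00892), as did Chtf18, of an alternative clamp loader (-0.28 ± 0.07, 0.012). The 2 that rose, Top2a, the topoisomerase that untangles copied DNA (0.58 ± 0.11, 0.00196), and Atad5, a clamp unloader (0.23 ± 0.07, 0.0215), both lie on chromosome 11. In 6 further licensing genes Mcmbp (-0.25) and Orc2 (-0.30) fell, in 7 origin firing genes Dbf4 (-0.25), and in 7 genes for chromatin behind the fork Uhrf1 (-0.24) and Asf1a (-0.36). None of 4 further lagging strand genes passed at day 5 with limma, and 1 had an unadjusted p under 0.05.

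The libraries numbered 3 had the highest share of reads from these genes in 3 of the 4 groups. Without them 15 of the 42 genes fell and 0 rose at day 5, where 15.2% of all genes tested were called, 7.58% lower. The calls of Ccne2 (adjusted p = 0.058), Pold2 (0.0632), Pold3 (0.123), Prim1 (0.14), Rpa2 (0.15), Rrm1 (0.134) and Tyms (0.0739) were then lost. Upper-quartile scaling ended the calls of Pold3 (0.0502) and Rpa2 (0.0581), and fitting only the day 5 groups those of Prim1 (0.0523), Pold3 (0.0678) and Rpa2 (0.0515). Counting by strand is not stated, and 13 of the 42 genes share exon sequence with a gene on the opposite strand. Among the 25 genes with no exon overlap and no named pseudogene, 15 fell and 1 rose at day 5. That is 64%, where 26.5% of all genes tested were called with all libraries.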

How the data were processed

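Total RNA from 12 samples was sequenced from stranded libraries. Per gene, the deposited table holds a signal: read counts over a size factor of the library. The values themselves show this, since 100% of them were whole multiples of 1 step per sample (tolerance 0.01). The submitters' processing notes list mm10, DESeq 1.16.0, HTSeq 0.6.0, TopHat2 2.0.10 and CASAVA 1.8.2, without their roles. Whole reads were recovered from the steps. Libraries of a group differed beyond sampling noise (chi-squared at least 11.4 per degree of freedom). Symbols and positions came from GENCODE M21 on mm10 by gene ID, which named 18199 IDs and left 70 unnamed.

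Group means of log2(value + 1) were fitted over the 12 samples with limma-trend (limma 3.58.1 in R 4.3.3), which left 8 residual and 5.00 prior degrees of freedom, two-sided, with Benjamini-Hochberg adjustment over 17000 genes, those whose mean reached 10 in any group. The edgeR 4.0.16 quasi-likelihood test and DESeq2 1.42.0 on the recovered reads were alternatives. The scripts were tested on simulated data. Other settings were TMM and upper-quartile scaling, a pseudocount of 10, no filter and a minimum of 50, only the groups compared, a replicate block without and with a GC content and length correction (lowess span 0.3), chromosome 11 centred on its median, libraries numbered 3 left out, and each library left out.

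Deviations from the group means correlated across genes between same-numbered samples of the 2 lines (0.270 to 0.372 at day 3, 0.247 to 0.424 at day 5) and of the 2 days in the null line (0.123 to 0.282), and reached at most 0.0521 between other numbers. In the floxed line the days gave 0.0814 to 0.214. The numbers were taken to pair samples except between the floxed days. The main fit leaves this pairing out, and the replicate block applies to all 4 groups, the floxed days included. With the block 25 of the 42 genes were lower and 1 higher at day 5, where 17.3% of all genes were called lower.

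The replication genes, role groups, other lists and tests were chosen with earlier results of these data known. Values of every library are given for the called gene with the largest change in each role group and genotype comparison, for genes called against the majority and for those on chromosome 11; Ccne1, Mcm6 and the day contrast values of Ccne2 were added after their values were seen. From each other list at most 3 called genes with the smallest p in each genotype comparison are named. The rule takes 1 further gene, which is not reported here. Promoters are from RefSeq, and genes without a window (Mcm4, Gins1, Gins2, Gins4, Prim2, Pole, Rfc2, Ccne2) were not searched.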

Additional observations from a re-analysis of the deposited data

How the results depend on the processing

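The 21 falls at day 5 became 15 to 27 over the settings other than single libraries left out, and 17 to 21 when 1 library was left out. The share of all genes called lower ran from 7.58% to 18.1% and from 9.02% to 12% in these settings. Of the 22 calls, 18 held each time 1 library was left out and 15 in all 18 settings. With upper-quartile scaling the median change was -0.22 at day 5, -0.10 between the floxed days and -0.19 for the interaction; genes called higher then made up 57.3% of all calls at day 5, against 49.2%. DESeq2 called 3 genes higher and 4 lower at day 3, where it called 11.5% of all genes, 3.95% lower. In the interaction it called 4 lower, beside 1.59% of all genes. Fitting only the groups compared called 0 lower at day 3, beside 1.58% of all genes. With the replicate block, which lost no call, 5 genes were higher and 3 lower at day 3 and 1 lower in the interaction. With the replicate block and the GC content and length correction these became 4, 5 and 2, and 14 genes were lower between the floxed days, with a median of -0.086. That setting called 5.35% of all genes lower at day 3, 1.69% in the interaction and 23.3% between the floxed days. The share of higher calls among all genes at day 3 moved from 66.9% to 58.7% and 55.8% with these blocks and to 46.5% with chromosome 11 centred.

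Centring chromosome 11 left 0 genes higher at both days and turned the sign of Cdc6 (-0.14), Rpa1 (-0.056) and Tk1 (-0.036) at day 3 and of Cdc6 (-0.25), Pold2 (-0.034) and Rpa1 (-0.28) at day 5, by construction. Without the libraries numbered 3, 1 gene was higher and 0 lower at day 3, where 2.25% of all genes were called. In that setting 0 were higher at day 5, the interaction median was -0.18 and Tk1 at day 5 was 0.0069. Leaving out single libraries gave 0 lower at day 3 each time. Medians then ran from -0.057 to 0.012 at day 3 (above 0 without null day 3 replicate 1), -0.28 to -0.21 at day 5, -0.080 to -0.041 between the floxed days, -0.30 to -0.24 between the null days and -0.26 to -0.20 for the interaction. Cdc6 at day 5 ran from -0.0013 (without floxed day 5 replicate 2) to 0.15, and Tk1 from -0.13 to 0.043 (without floxed day 5 replicate 3). The cause of these moves was not tested.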
